A study of Homo sapiens with 29 samples.

Results

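The 59 genes described here encode cyclins, kinases, kinetochore and spindle proteins, condensin subunits and other proteins of mitosis. They were picked by symbol from a table of 13492 genes. All 59 symbols were found, and 59 of 59 passed a filter of at least 1 CPM (CPM are read counts relative to sequencing depth, on the authors' scaling) in at least 5 libraries, as did 13373 genes of the table. PolyA RNA was sequenced from xenografts grown in mice from COLO320DM, an established human colorectal adenocarcinoma line. The mouse strain is not given in the sources used here. All tumors are labelled 48 h after treatment with Helicon4 at 100 mpk (Helicon4_100mpk, 5 libraries), Helicon4 at 30 mpk (Helicon4_30mpk, 6 libraries), Helicon4neg at 30 mpk (Helicon4neg_30mpk, 8 libraries) or vehicle (10 libraries). The labels give the dose unit as mpk without spelling it out, and give neither route nor number of doses. The series presents the helicon peptide as directed at β-catenin and TCF transcription factors, and its labels state no structure and no difference in structure between Helicon4 and Helicon4neg. All 4 groups come from the same cell line, so they speak for xenografts of that line. Separate replicate numbers are the only sign that libraries of a group came from different animals, and the p-values therefore measure the spread between libraries.

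Mitosis divides the copied chromosomes between daughter cells. CDK1 bound to cyclin B starts it, condensin compacts the chromosomes, and kinesins and other microtubule proteins build the spindle. Kinetochores attach chromosomes to the spindle, and the spindle checkpoint delays anaphase until all are attached. The anaphase promoting complex, a ubiquitin ligase, then marks securin and cyclin B for destruction, which frees separase to cut the cohesin that holds sister chromatids together. Most of these genes are transcribed late in the cell cycle. Their promoters are known for the cell cycle genes homology region (CHR), bound by MuvB complexes that act with FOXM1, and for CCAAT boxes, bound by NF-Y.

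Promoter sequences were available for 51 of the 59 genes, as windows from 250 bases before to 50 bases after the annotated start (RefSeq, GRCh38.p14). The windows of 5 genes are shown as examples and do not cover every case of the main result described further on. ESPL1, PLK1 and KIFC1 fell with Helicon4 at 100 mpk and hold both motifs. CDC25B fell and holds neither, and CDK1 holds both and did not pass the test. Genes that fell and hold CCAAT without a CHR (AURKB, UBE2S, SPC24 and NCAPH) are not shown. Each runs 5′ to 3′ on the plus strand of the genome. Capitals mark matches to TTTGAA or TTCGAA (CHR) and to CCAAT (NF-Y box), read on both strands, so that TTCAAA and ATTGG are the reverse strand matches. They lie at chr12:53268049-53268348 (ESPL1), chr16:23678639-23678938 (PLK1), chr6:33391573-33391872 (KIFC1), chr20:3786701-3787000 (CDC25B) and chr10:60778081-60778380 (CDK1).
ESPL1: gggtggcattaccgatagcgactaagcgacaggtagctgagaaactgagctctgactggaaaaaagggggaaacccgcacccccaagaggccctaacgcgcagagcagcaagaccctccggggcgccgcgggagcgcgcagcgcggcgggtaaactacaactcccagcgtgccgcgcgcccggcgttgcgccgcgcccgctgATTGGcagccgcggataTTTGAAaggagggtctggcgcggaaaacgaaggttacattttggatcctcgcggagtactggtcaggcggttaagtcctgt
PLK1: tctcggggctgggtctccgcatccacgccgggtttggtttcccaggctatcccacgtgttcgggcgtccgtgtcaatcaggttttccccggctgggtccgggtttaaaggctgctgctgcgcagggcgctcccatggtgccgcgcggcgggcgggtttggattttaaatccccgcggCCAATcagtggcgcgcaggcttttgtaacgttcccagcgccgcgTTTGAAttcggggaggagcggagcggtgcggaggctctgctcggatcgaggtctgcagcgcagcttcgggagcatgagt
KIFC1: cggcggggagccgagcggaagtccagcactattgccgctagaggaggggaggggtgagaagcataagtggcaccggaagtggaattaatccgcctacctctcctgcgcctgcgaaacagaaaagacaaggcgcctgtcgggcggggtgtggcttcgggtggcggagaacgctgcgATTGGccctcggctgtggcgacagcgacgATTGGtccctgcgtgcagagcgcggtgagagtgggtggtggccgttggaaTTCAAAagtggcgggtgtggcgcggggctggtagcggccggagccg
CDC25B: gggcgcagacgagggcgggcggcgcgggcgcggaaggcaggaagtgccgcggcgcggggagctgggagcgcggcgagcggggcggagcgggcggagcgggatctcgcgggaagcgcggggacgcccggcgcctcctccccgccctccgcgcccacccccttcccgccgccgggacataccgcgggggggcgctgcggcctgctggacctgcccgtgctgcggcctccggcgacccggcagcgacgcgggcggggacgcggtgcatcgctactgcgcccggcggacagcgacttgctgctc
CDK1: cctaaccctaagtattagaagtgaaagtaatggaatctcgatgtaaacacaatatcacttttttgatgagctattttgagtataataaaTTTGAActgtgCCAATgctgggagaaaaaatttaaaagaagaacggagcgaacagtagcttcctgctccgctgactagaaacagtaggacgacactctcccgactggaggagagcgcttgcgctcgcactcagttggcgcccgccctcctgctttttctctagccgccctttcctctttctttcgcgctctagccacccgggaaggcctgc

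A CHR match was present in 38 of the 51 promoters (74.5%), against 11.3% of the 10077 tested genes with a promoter entry and 16.6% of all 27305 promoters. CCAAT was found in 38 of 51 (74.5%), against 37.1% of the tested genes and 35.7% of all promoters. Both occurred together in 58.8% of the 51 promoters, against 4.79% of the tested genes and 6.58% of all promoters. The CHR matches, 50 in all, had a median position of -24.5 bases from the start and 36 of them lay within 50 bases of it, while the 80 CCAAT matches had a median position of -74.5. In ESPL1 the CHR began at -31 and the CCAAT box at -48, in PLK1 at -29 and -73. The E-box CACGTG was found in 9.8% of the 51 promoters, against 10.1% of the tested genes. The TCF/LEF sequence ATCAAAG matched in 0 of 51, against 1.46% of the tested genes. These letters were searched on both strands, TTCGAA reads the same on either strand and was counted once, and no motif is contained in another. A match describes the sequence and is not evidence of a bound site. Genes of DNA replication, the other large group of cell cycle genes, had a CHR in 2 of 31 promoters (6.45%) and CCAAT in 58.1%.

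**Figure D1:**
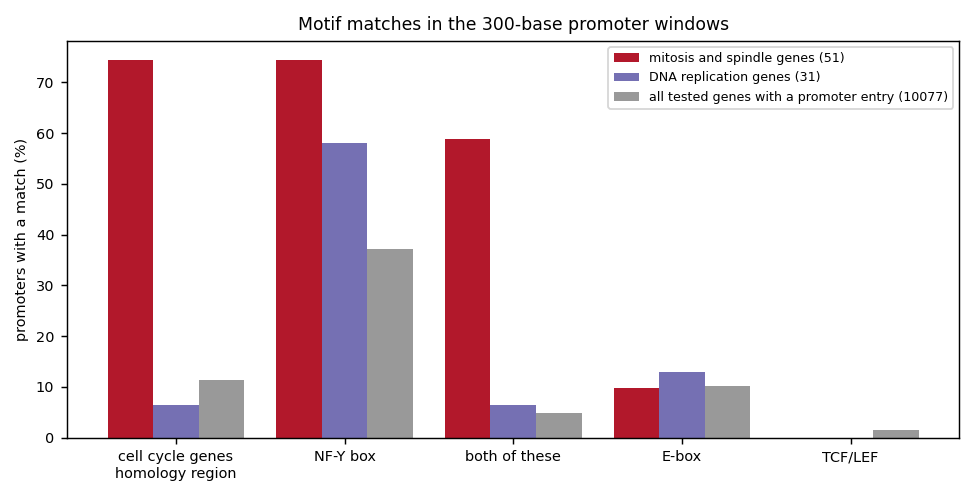
Share of promoters (%, vertical axis) with at least 1 match to each motif in the promoter window, for mitosis and spindle genes, DNA replication genes and all tested genes with a promoter entry. CHR matches stood at 74.5% of the 51 mitotic promoters, at 6.45% of the DNA replication promoters and at 11.3% of all tested genes.

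Libraries held an estimated 26.8 to 61.6 M reads, taking the smallest step between values of a library as 1 read, and the ranges of the 4 groups overlapped. Of 6 Wnt response genes used as a check, 5 fell with either dose of Helicon4 against vehicle. With Helicon4neg 0 fell and 1 rose, and 5 of the 6 values were positive, with a median log2 fold change of 0.25. Colorectal markers were present for 7 of 9 genes listed, among them CDX2, KRT8 and KRT18, while CDH1 and VIL1 had no row in the table. Endothelial markers had 3 of 9, with no row for PECAM1, CDH5, VWF or KDR, leukocyte markers 4 of 10 and fibroblast markers 8 of 16. The fibroblast list summed to 107 to 171 CPM with Helicon4 at 100 mpk, to 138 to 193 CPM with Helicon4 at 30 mpk, to 222 to 306 CPM with Helicon4neg and to 182 to 278 CPM with vehicle, so that the 100 mpk and vehicle groups did not overlap. Its genes moved both ways at 100 mpk, 3 lower and 3 higher. MMP2 averaged 71.6 CPM at 100 mpk and 156 CPM with vehicle and BGN 11.5 CPM at 100 mpk and 45.4 CPM with vehicle, while COL1A1 averaged 21.4 CPM at 100 mpk and 12.3 CPM with vehicle. The endothelial list summed to 25.4 to 40.5 CPM with Helicon4 at 100 mpk, 32.97 to 55.3 CPM with Helicon4 at 30 mpk, 42.1 to 149 CPM with Helicon4neg and 41.2 to 96.0 CPM with vehicle. Its 100 mpk and vehicle groups did not overlap either, and at 100 mpk 2 of its 3 genes fell and 0 rose. The leukocyte list summed to 25.2 to 37.8 CPM with Helicon4 at 100 mpk and 26.9 to 44.5 CPM with vehicle. The part of host cells in the results below was not tested. Helicon4neg library 2 and vehicle library 6 stood apart most: their values depended on gene length, with slopes of -0.32 and -0.19 in log2 CPM per doubling of length. Results that rest on them are given with and without both. Vehicle libraries 4 and 8 came next, with slopes of -0.14 and -0.13, and were kept in the fits without the libraries that stood apart. Sample titles carry codes of unstated meaning. No code holds both Helicon4 and vehicle libraries, so there are no within-code values of Helicon4 against vehicle. A fit with the code as a block links vehicle to Helicon4 at 30 mpk only through codes shared with Helicon4neg libraries. On the Helicon4 side this link is 1 library at 30 mpk. Helicon4 at 100 mpk shares no code with Helicon4neg and is linked only through 1 other Helicon4_30mpk library.

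Levels between genes were compared per kilobase of gene length. In mean CPM per kilobase, the ubiquitin-conjugating enzyme UBE2C was highest, with 119 with Helicon4 at 100 mpk and 149 with vehicle. UBE2S followed with 67.4 at 100 mpk and 115 with vehicle, and TPX2, which nucleates spindle microtubules, with 65.8 at 100 mpk and 70.95 with vehicle. CCNB1, cyclin B1, had 61.2 per kilobase at 100 mpk and 59.97 with vehicle. Lowest were the kinesins KIF14 with 2.94 at 100 mpk and 2.498 with vehicle, and KIF20B with 2.7004 at 100 mpk and 2.31 with vehicle. In CPM per gene, the lowest group mean of any member was 15.8 CPM, for KIF20B with vehicle, so all 59 lay well above the filter.

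With Helicon4 at 100 mpk, 10 of the 59 genes fell and 0 rose against vehicle, while most of the set, including CDK1, CCNB1, TOP2A and BUB1, stayed near the vehicle level. Those that fell were ESPL1, KIFC1, CDC25B, CDC20, PLK1, SPC24, NCAPH, UBE2S, AURKB and KIF2C. The share of members called lower, 16.9%, compares with 15.9% of all 13373 genes called lower and 14.3% called higher (30.2% in either direction). In this fit, which has no covariate, the share that fell was therefore near that of the whole table. With a covariate for gene length, described further on, 23 of 59 fell, against 20.3% of all genes. The median log2 fold change of the 59 was -0.14, against 0.01 for all genes tested, with 44 negative and 15 positive values between -0.71 and 0.29. Every log2 fold change here is on the log2(CPM + 1) scale, where the change of a low gene is understated, and comes from limma over all genes with Benjamini-Hochberg adjustment. Only 2 of the falls, SPC24 and UBE2S, reached 1.5-fold, while 5.05% of all genes were lower by at least that much. In 0 of 59 genes were the groups free of overlap, against 4.13% of all genes lower and 4.67% higher without overlap. Unadjusted p was under 0.05 for 13 of the 59 members, against 5440 of all 13373 genes. In tumor RNA a lower level can mean fewer dividing cells or less RNA per cell, which cannot be told apart here.

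The falls were spread over the roles. They took in 3 of 5 partners of the anaphase promoting complex and separase, 2 of 10 kinesins, 1 of 7 entry genes, 1 of 3 kinases, 1 of 4 chromosomal passenger genes, 1 of 7 kinetochore genes and 1 of 8 genes of chromosome structure. None of the 5 spindle checkpoint genes, the 6 spindle microtubule genes or the 3 cytokinesis genes passed the test, and neither did FOXM1. None of these genes had an unadjusted p under 0.05. In a fit that blocks on title code, 0 members were called (0.501% of all genes lower, 141 genes in either direction), with standard errors of the members 3.20 times as large. Leaving out Helicon4_100mpk library 3 alone lowered the count to 5, and leaving out Helicon4neg library 2 raised it to 14. Shares over all genes were not set beside the counts of 5 and 14, so they describe the members' calls only. Without both libraries that stood apart the count was 12, the same 10 with CDCA3 and FOXM1 (20.9% of all genes lower).

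**Figure D2:**
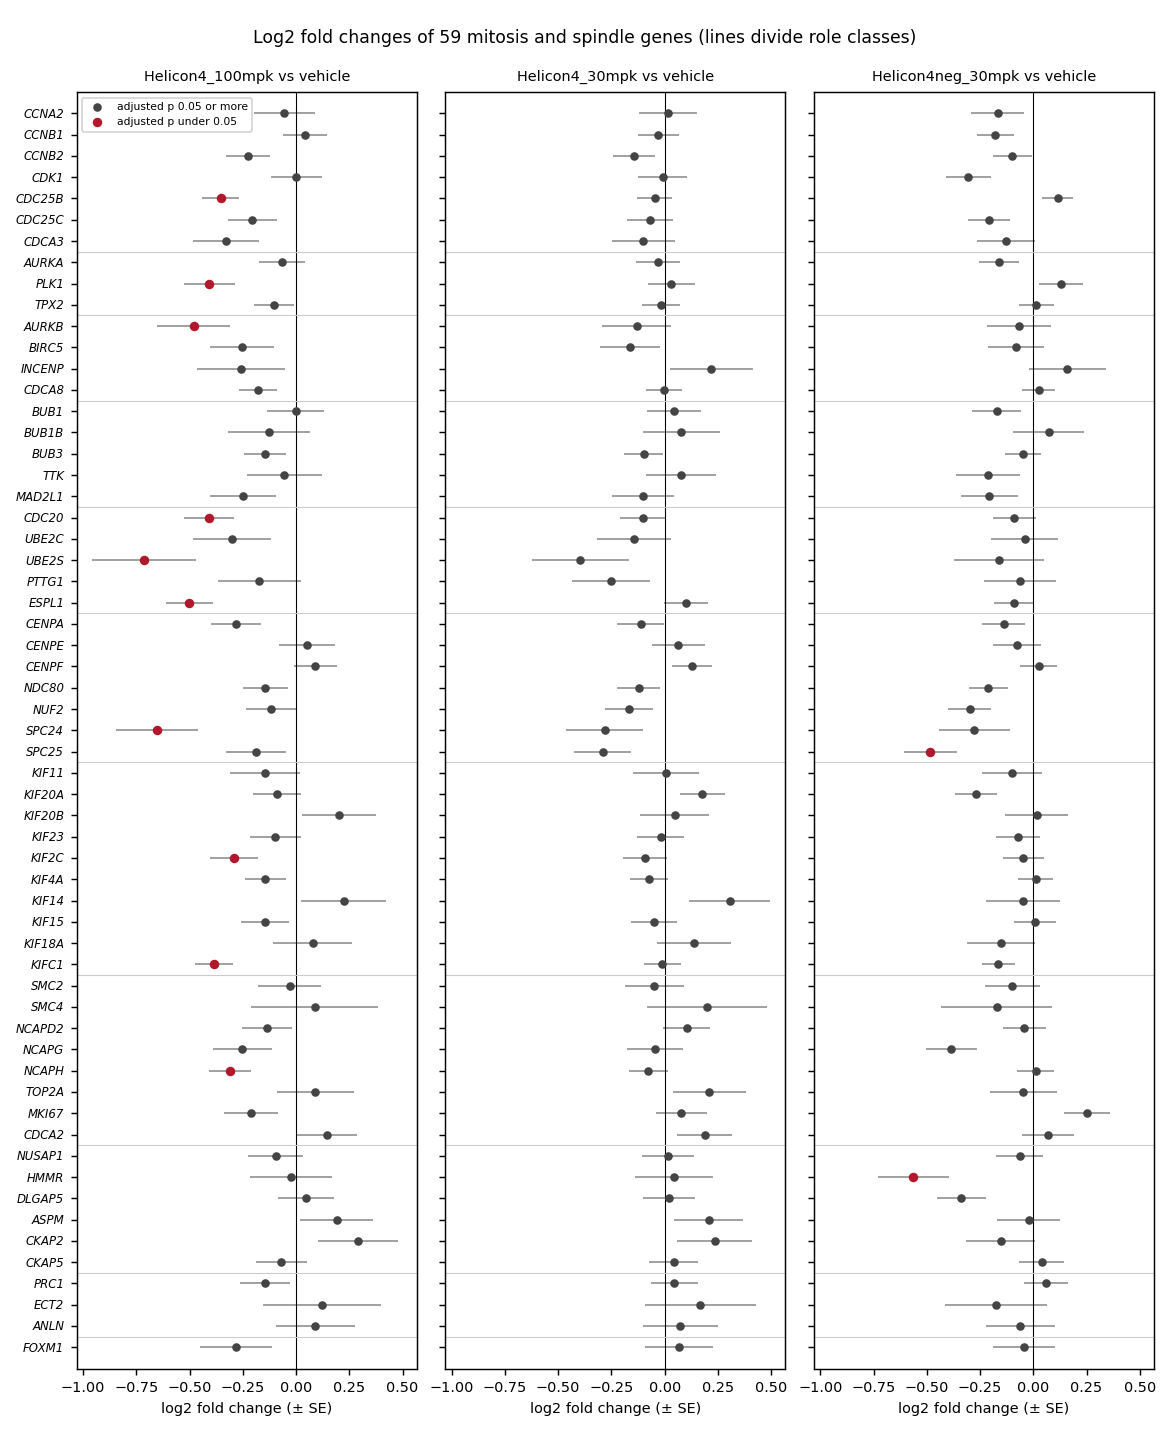
Log2 fold change of each of the 59 genes (horizontal axis, log2(CPM + 1) scale, bars ± SE) for both doses of Helicon4 (100 mpk in the left panel) and for Helicon4neg, each against the same 10 vehicle libraries. Red points have adjusted p under 0.05, which are 10 genes at 100 mpk, 0 at 30 mpk and 2 with Helicon4neg.

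ESPL1, which encodes separase, the protease that opens cohesin at anaphase, had the smallest adjusted p of the 59. Its level was 58.2, 52.9, 61.6, 70.02 and 85.6 CPM in the 5 libraries with Helicon4 at 100 mpk, and 70.3 to 116 CPM (median 95.3) over the 10 vehicle libraries. Libraries 1 to 4 at 100 mpk lay below every vehicle library and library 5 lay inside the vehicle range. The log2 fold change was -0.50 ± 0.11 (SE, adjusted p = 0.000835), and the call held whichever single library was left out. CDC20, the activator that brings substrates to the anaphase promoting complex, had 82.1, 67.8, 72.2, 80.1 and 95.02 CPM at 100 mpk, against 71.7 to 131 CPM (median 109) with vehicle. All 5 lay below the vehicle median, with a log2 fold change of -0.41 ± 0.12 (adjusted p = 0.0082).

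UBE2S, which extends the ubiquitin chains made by that complex, had 215, 158, 145, 226 and 195 CPM with Helicon4 at 100 mpk, against 185 to 559.9 CPM (median 320.1) with vehicle. This was the largest fall of the set, -0.71 ± 0.24 in log2 (adjusted p = 0.0256), and UBE2S also had the widest spread of the 59 among vehicle libraries (coefficient of variation 34.9%), where library 6 was highest. Libraries 2 and 3 at 100 mpk lay below every vehicle library. With the libraries' slope on gene length as a covariate UBE2S stood at -0.34, and the largest fall was that of ESPL1, at -0.60. The call of UBE2S was lost without Helicon4_100mpk library 2 (adjusted p = 0.0714) or library 3 (0.0876), in a range of 0.00221 to 0.862 over all alternatives. UBE2C, which starts the chains, averaged 153 ± 16.5 CPM at 100 mpk and 191 ± 39.6 CPM with vehicle (SD, n = 5 and 10), so the log2 fold change was -0.30 (adjusted p = 0.217). PTTG1, securin, the inhibitor of separase, averaged 89.4 ± 18.7 CPM at 100 mpk and 101.4 ± 24.3 CPM with vehicle, a log2 fold change of -0.17 (adjusted p = 0.53). Neither passed the test.

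**Figure D3:**
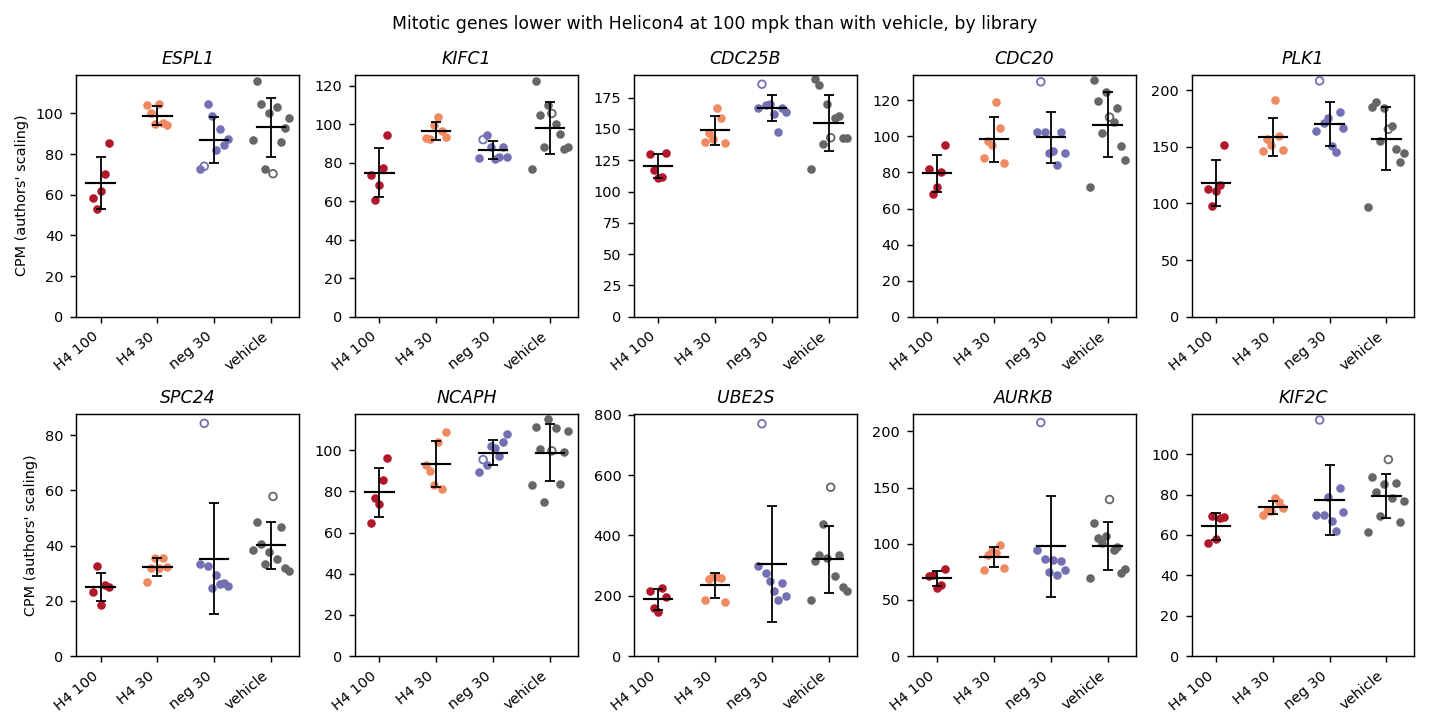
CPM (vertical axis, from 0) of the 10 genes that fell, in each library with Helicon4 at 100 mpk (H4 100), Helicon4 at 30 mpk (H4 30), Helicon4neg at 30 mpk (neg 30) and vehicle, with mean and SD as bars and the 2 libraries that stood apart as open circles. The 5 libraries at 100 mpk overlap the vehicle range in every panel, and SPC24, UBE2S, AURKB and KIF2C show Helicon4neg library 2 above all others.

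Among the genes of entry into mitosis, CDC25B, a phosphatase that activates cyclin-dependent kinases, fell. It had 130.2, 117, 111, 111 and 131 CPM with Helicon4 at 100 mpk, against 118 to 189 CPM (median 151) with vehicle. Libraries 2, 3 and 4 at 100 mpk lay below every vehicle library and the other 2 below 9 of the 10, and the log2 fold change was -0.35 ± 0.09 (adjusted p = 0.00222). CDK1, the kinase that drives mitosis, had 89.2, 149.7, 125, 140.1 and 132 CPM at 100 mpk, against 89.5 to 176 CPM (median 126) with vehicle. Its groups overlapped almost fully, with a log2 fold change of 0.00 and a 95% interval of -0.25 to 0.25. CCNB1 averaged 157 ± 13.7 CPM at 100 mpk and 153 ± 24.9 CPM with vehicle, with a log2 fold change of 0.04 and an interval of -0.17 to 0.25. CCNB2, cyclin B2, stood at -0.23 (adjusted p = 0.101), CDCA3, which promotes entry, at -0.33 (adjusted p = 0.109), CDC25C at -0.20 (adjusted p = 0.175) and CCNA2, cyclin A2, at -0.06 (adjusted p = 0.795).

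PLK1, polo-like kinase 1, acts from entry through cytokinesis. It had 112, 97.3, 111, 116 and 152 CPM with Helicon4 at 100 mpk, against 96.98 to 189.7 CPM (median 160.1) with vehicle, and libraries 1 to 4 at 100 mpk lay below 9 of the 10 vehicle libraries. The log2 fold change was -0.41 ± 0.12 (adjusted p = 0.00979). AURKA, the Aurora kinase of spindle poles, averaged 86.4 ± 8.09 CPM at 100 mpk and 91.2 ± 14.6 CPM with vehicle, a log2 fold change of -0.07 (adjusted p = 0.68). Its activator TPX2 stood at -0.11 (adjusted p = 0.423). AURKB, the Aurora kinase of the chromosomal passenger complex, which corrects faulty attachments, had 71.6, 72.2, 60.3, 63.5 and 77.8 CPM at 100 mpk, against 69.3 to 139 CPM (median 99.3) with vehicle. All 5 lay below the vehicle median, and the log2 fold change was -0.48 ± 0.17 (adjusted p = 0.0339). This call was lost on leaving out any of 7 libraries (vehicle 2, 3, 5 or 6, Helicon4_100mpk 2, 3 or 4), with adjusted p between 0.0504 and 0.0991. Over all alternative fits adjusted p ran from 0.00159 to 0.917. With the length slope as a covariate AURKB stood at -0.23 and kept its call. The other passenger genes were lower on average without passing the test: survivin (BIRC5) at -0.25 (adjusted p = 0.205), INCENP at -0.26 (adjusted p = 0.362) and borealin (CDCA8) at -0.18 (adjusted p = 0.131).

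At the kinetochore, SPC24 fell. SPC24 and SPC25 anchor the NDC80 complex, which holds spindle microtubules. SPC24 had 23.3, 32.6, 18.5, 25.9 and 24.98 CPM with Helicon4 at 100 mpk, against 30.9 to 57.8 CPM (median 38.1) with vehicle. Of the 5 libraries, only library 2 reached the vehicle range, and the log2 fold change was -0.65 ± 0.19 (adjusted p = 0.0103, or 0.0519 without Helicon4_100mpk library 3, within 0.000118 to 0.952 over all alternatives). With the length slope as a covariate SPC24 stood at -0.38 and kept its call. Its partner SPC25 stood at -0.19 (adjusted p = 0.332), and the outer subunits NDC80 and NUF2 at -0.14 (adjusted p = 0.316) and -0.12 (adjusted p = 0.472). CENPA, the histone that marks centromeres, averaged 32.98 ± 5.43 CPM at 100 mpk and 40.7 ± 9.19 CPM with vehicle, a log2 fold change of -0.28 (adjusted p = 0.0672). The large kinetochore proteins CENPE and CENPF stood at 0.05 (adjusted p = 0.79) and 0.09 (adjusted p = 0.5257). In the spindle checkpoint, BUB1 averaged 84.9 ± 15.2 CPM at 100 mpk and 85.03 ± 14.6 CPM with vehicle, with a log2 fold change of -0.001 and an interval of -0.27 to 0.27. MAD2L1, the inhibitor of CDC20, had the smallest adjusted p of the checkpoint genes, at -0.25 (adjusted p = 0.231).

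Motor proteins were mixed. KIFC1, a kinesin that moves toward microtubule minus ends and gathers spindle poles, had 73.6, 60.6, 68.7, 77.5 and 94.6 CPM with Helicon4 at 100 mpk, against 76.98 to 123 CPM (median 97.6) with vehicle. Libraries 1, 2 and 3 lay below every vehicle library, and the log2 fold change was -0.38 ± 0.09 (adjusted p = 0.00166). KIF2C, which takes microtubules apart at centromeres, had 55.95, 69.6, 58.1, 68.4 and 69.1 CPM, against 61.7 to 97.4 CPM (median 79.9) with vehicle. Libraries 1 and 3 at 100 mpk lay below every vehicle library. Its log2 fold change of -0.29 ± 0.11 passed narrowly (adjusted p = 0.0449) and missed the threshold on leaving out any of 12 libraries: vehicle 2, 3, 5, 6, 7 or 8, Helicon4_30mpk 2 or 3, or Helicon4_100mpk 1, 2, 3 or 4. Adjusted p then lay between 0.0505 and 0.128, within 0.00926 to 0.92 over all alternative fits. KIF11, the motor that pushes spindle poles apart, averaged 66.1 ± 16.3 CPM at 100 mpk and 72.4 ± 13.3 CPM with vehicle, a log2 fold change of -0.15 (adjusted p = 0.527). On the positive side stood KIF14 at 0.22 (adjusted p = 0.422), KIF20B at 0.20 (adjusted p = 0.396) and KIF18A at 0.08 (adjusted p = 0.779), none of which passed the test.

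In the condensin group, NCAPH, the subunit that closes the condensin I ring, had 64.8, 77.02, 73.8, 85.5 and 96.2 CPM with Helicon4 at 100 mpk, against 74.9 to 115 CPM (median 100.1) with vehicle. Libraries 1 and 3 lay below every vehicle library and library 5 near the vehicle median. Its log2 fold change was -0.31 ± 0.10 (adjusted p = 0.0174), and the call was lost without Helicon4_100mpk library 1 (0.0710) or library 3 (0.0555), within 0.00224 to 0.373 over all alternative fits. The other condensin subunits stood at -0.25 (adjusted p = 0.173) for NCAPG, -0.14 (adjusted p = 0.393) for NCAPD2, -0.03 (adjusted p = 0.9) for SMC2 and 0.09 (adjusted p = 0.85) for SMC4. TOP2A, the topoisomerase that untangles sister chromatids, had 194, 293, 325, 349 and 378 CPM at 100 mpk, against 184 to 387 CPM (median 287) with vehicle, and the ranges coincided. MKI67, which encodes the proliferation antigen Ki-67, had 139, 145, 172, 191 and 192 CPM at 100 mpk, against 126 to 249 CPM (median 199) with vehicle. All 5 lay below the vehicle median and inside the vehicle range, with a log2 fold change of -0.21 (adjusted p = 0.215) and an interval of -0.47 to 0.05.

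None of the spindle microtubule and cytokinesis genes passed the test. CKAP2, a spindle protein, averaged 176 ± 31.7 CPM with Helicon4 at 100 mpk and 143 ± 25.6 CPM with vehicle, with the highest log2 fold change of the 59, 0.29 (adjusted p = 0.251). ASPM, which organises spindle poles, stood at 0.19 (adjusted p = 0.423), DLGAP5, which bundles spindle microtubules, at 0.05 (adjusted p = 0.807), and HMMR, a spindle assembly protein, at -0.02 (adjusted p = 0.943). PRC1, which bundles the microtubules between separating chromosomes, averaged 85.7 ± 12.9 CPM at 100 mpk and 94.5 ± 10.4 CPM with vehicle, at -0.15 (adjusted p = 0.373). ECT2, which switches on RHOA for the contractile ring, and anillin (ANLN), which scaffolds it, stood at 0.12 (adjusted p = 0.772) and 0.09 (adjusted p = 0.746). FOXM1, the transcription factor that activates many of these genes, had 137, 99.02, 138, 145 and 179 CPM at 100 mpk, against 114 to 210.2 CPM (median 189) with vehicle. Its log2 fold change of -0.28 (adjusted p = 0.213) did not pass the test with all libraries, and passed it without the 2 that stood apart, at -0.34.

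With Helicon4 at 30 mpk, 0 of the 59 genes passed the test against vehicle, while 11.1% of all genes did (5.86% higher, 5.22% lower). The median log2 fold change was 0.00, with 29 positive and 30 negative values between -0.40 and 0.30. Unadjusted p was under 0.05 for 1 of the 59, against 3401 of all 13373 genes. The smallest adjusted p was that of SPC25, at -0.29 (adjusted p = 0.166), followed by UBE2S at -0.40 (adjusted p = 0.272) and KIF20A at 0.18 (adjusted p = 0.298). Of the genes that fell at 100 mpk, ESPL1, PLK1, KIFC1 and CDC25B had values close to those of vehicle. Others were lower on average without passing the test, with UBE2S at -0.40, AURKB at -0.13 and CDC20 at -0.10. Values of SPC24, NCAPH and KIF2C at this dose are not given here. ESPL1 had 94.3 to 105 CPM (median 97.6) with Helicon4 at 30 mpk and 70.3 to 116 CPM (median 95.3) with vehicle, a log2 fold change of 0.10 with an interval of -0.11 to 0.31. PLK1 stood at 0.03 (interval -0.20 to 0.26), KIFC1 at -0.01 (-0.18 to 0.16) and CDC25B at -0.05 (-0.21 to 0.12). CDK1 stood at -0.01 (-0.24 to 0.22), CCNB1 at -0.03 (-0.23 to 0.17), TOP2A at 0.21 (-0.14 to 0.56) and MKI67 at 0.08 (-0.17 to 0.32). Other core genes stood at log2 fold changes of -0.13 for AURKB, 0.04 for BUB1, -0.10 for CDC20, -0.11 for CENPA, 0.01 for KIF11 and 0.05 for PRC1. In each other role class the gene with the smallest adjusted p was CCNB2, at -0.15 (adjusted p = 0.354), CDCA2 at 0.19 (adjusted p = 0.37), CKAP2 at 0.23 (adjusted p = 0.411), BIRC5 at -0.16 (adjusted p = 0.476), BUB3 at -0.10 (adjusted p = 0.506), ECT2 at 0.17 (adjusted p = 0.71), FOXM1 at 0.07 (adjusted p = 0.809) and AURKA at -0.03 (adjusted p = 0.868).

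With Helicon4neg at 30 mpk, 2 of the 59 genes fell against vehicle (3.39% of members, against 2.62% of all genes called lower and 4.84% called in either direction), and 0 rose, against 2.21%. The median log2 fold change was -0.08, with 44 negative and 15 positive values. SPC25 had 16.97 to 34.8 CPM (median 18.2) with Helicon4neg, against 21.8 to 41.6 CPM (median 27.98) with vehicle. In 7 of the 8 Helicon4neg libraries SPC25 lay below every vehicle library, and library 2 was the exception. Its log2 fold change was -0.48 ± 0.12 (adjusted p = 0.0182), or -0.53 with adjusted p = 0.000418 without the libraries that stood apart. Without Helicon4neg library 4 the call was just lost (0.05003), and the range over all alternative fits was 0.000365 to 0.393. HMMR had 8.84 to 25.5 CPM (median 21.2) with Helicon4neg, against 20.9 to 38.3 CPM (median 31.6) with vehicle. It passed narrowly at -0.56 ± 0.17 (adjusted p = 0.0454) and was lost without the libraries that stood apart (0.0625) and when any of 17 libraries was left out. These were vehicle libraries 1, 2, 3, 5, 6, 7, 9 and 10, Helicon4neg libraries 1, 3, 4 and 5, Helicon4_30mpk libraries 1 to 4 and Helicon4_100mpk library 3. Adjusted p was at most 0.0814 among these and ran from 0.000238 to 0.147 over all alternative fits.

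Without both libraries that stood apart, 4 genes fell with Helicon4neg (7.74% of all genes lower): SPC25, SPC24 at a log2 fold change of -0.41, the condensin subunit NCAPG at -0.32 and CDC25C at -0.26. None of the 10 genes that fell with Helicon4 at 100 mpk was called with Helicon4neg when all libraries were kept. The comparisons share their vehicle libraries. With Helicon4neg PLK1 stood at 0.13 (interval -0.08 to 0.34), ESPL1 at -0.09 (-0.28 to 0.10), CDC20 at -0.09 (-0.30 to 0.12), AURKB at -0.07 (-0.37 to 0.24) and KIFC1 at -0.16 (-0.32 to -0.00). CDK1 stood at -0.30 (adjusted p = 0.0903), KIF20A at -0.27 (adjusted p = 0.112), NCAPG at -0.38 (adjusted p = 0.0591) and MKI67 at 0.25 (adjusted p = 0.193). In the remaining role classes the smallest adjusted p belonged to AURKA at -0.16 (adjusted p = 0.352), MAD2L1 at -0.21 (adjusted p = 0.418), INCENP at 0.16 (adjusted p = 0.688), ECT2 at -0.17 (adjusted p = 0.752) and FOXM1 at -0.04 (adjusted p = 0.909). Other core genes had log2 fold changes of -0.18 for CCNB1, -0.17 for BUB1, -0.14 for CENPA, -0.10 for KIF11, -0.05 for TOP2A and 0.06 for PRC1.

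At the matched dose of 30 mpk, Helicon4 and Helicon4neg were compared directly. Of the 59 genes 2 were higher with Helicon4 (3.39%, against 7.78% of all genes higher and 15.1% in either direction), and 0 were lower, against 7.31%, with a median log2 difference of 0.10. KIF20A, a kinesin of the midzone needed for cytokinesis, had 53.2 to 68.00 CPM (median 65.3) with Helicon4, against 37.5 to 50.5 CPM (median 46.9) with Helicon4neg, and the groups did not overlap. The difference was 0.45 ± 0.11 (adjusted p = 0.0059). HMMR had 25.7 to 44.1 CPM (median 29.6) with Helicon4, against 8.84 to 25.5 CPM (median 21.2) with Helicon4neg, again without overlap, at 0.61 ± 0.19 (adjusted p = 0.0283). Groups free of overlap with Helicon4 higher made up 3.78% of all genes. HMMR stood at 0.45 (adjusted p = 0.0363) without the libraries that stood apart. Its call was lost without Helicon4_30mpk library 1 (0.0627) or 6 (0.0920), and in a fit of only these groups (0.0523). Over all alternatives its adjusted p ran from 0.0101 to 0.998. Without the libraries that stood apart SPC25 was also higher with Helicon4, at 0.30, which made 3 of 59 (9.62% of all genes higher). Against vehicle, neither gene passed the test with Helicon4 at 30 mpk: KIF20A stood at 0.18 and HMMR at 0.04. Differences that missed the threshold had the following intervals: PLK1 -0.34 to 0.14, CDC20 -0.25 to 0.22, AURKB -0.41 to 0.28, FOXM1 -0.23 to 0.46, CCNB1 -0.06 to 0.35, CDK1 0.05 to 0.54 and MKI67 -0.43 to 0.08. In the other role classes the smallest adjusted p belonged to NCAPG at 0.34 (adjusted p = 0.0983), CDK1 at 0.29 (adjusted p = 0.0995), ESPL1 at 0.19 (adjusted p = 0.258), TTK at 0.29 (adjusted p = 0.288), SPC25 at 0.19 (adjusted p = 0.398), ECT2 at 0.34 (adjusted p = 0.445), AURKA at 0.13 (adjusted p = 0.455), FOXM1 at 0.11 (adjusted p = 0.706) and BIRC5 at -0.08 (adjusted p = 0.769). The remaining core genes differed by 0.22 for BUB1, 0.03 for CENPA, 0.11 for KIF11, 0.26 for TOP2A and -0.01 for PRC1. Only this pair of compounds was compared at a matched dose.

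Between the doses of Helicon4, 2 of the 59 genes were lower at 100 mpk than at 30 mpk (3.39%, against 1.86% of all genes lower and 3.6% in either direction), and 0 were higher, against 1.74%. The median log2 difference was -0.11 and 49 of 59 values were negative. ESPL1 had 58.2, 52.9, 61.6, 70.02 and 85.6 CPM at 100 mpk, against 104, 100.1, 94.97, 105, 95.1 and 94.3 CPM at 30 mpk. Every library at 100 mpk lay below every library at 30 mpk, and the difference was -0.60 ± 0.12 (adjusted p = 0.0037). KIFC1 had 73.6, 60.6, 68.7, 77.5 and 94.6 CPM at 100 mpk, against 93.1, 92.4, 99.6, 104, 96.7 and 93.4 CPM at 30 mpk, with library 5 at 100 mpk inside the range of 30 mpk. Its difference was -0.37 ± 0.10 (adjusted p = 0.0316). The call was lost on leaving out any of 7 libraries, Helicon4_30mpk 2, 3, 4 or 5 or Helicon4_100mpk 2, 3 or 4. Adjusted p was at most 0.157 among these and ran from 0.00486 to 0.621 over all alternative fits. PLK1 at -0.44 (adjusted p = 0.0559) and CDC25B at -0.31 (adjusted p = 0.0667) missed the threshold, and both passed it without the libraries that stood apart, PLK1 at -0.44 and CDC25B at -0.31, which made 4 of 59 (4.32% of all genes lower). ESPL1, CDC25B and KIF2C, 3 of 59, had no overlap between the doses, as did 1.71% of all genes lower at 100 mpk. For ESPL1 and KIFC1 the difference between doses thus itself passed the test, while for CDC20 at -0.31 (adjusted p = 0.201), SPC24 at -0.37 (adjusted p = 0.379), UBE2S at -0.32 (adjusted p = 0.599), AURKB at -0.35 (adjusted p = 0.353) and NCAPH at -0.23 (adjusted p = 0.259) a fall at 100 mpk is not shown to differ from 30 mpk in this fit. KIF2C was not called between the doses either. With the length slope as a covariate 4 of these genes passed between the doses, AURKB at -0.36, SPC24 at -0.39, UBE2S at -0.34 and CDC20 at -0.31, while NCAPH at -0.23 and KIF2C did not. In the other role classes the smallest adjusted p belonged to INCENP at -0.48 (adjusted p = 0.278), FOXM1 at -0.35 (adjusted p = 0.342), PRC1 at -0.19 (adjusted p = 0.485), BUB1B at -0.20 (adjusted p = 0.686) and CKAP5 at -0.11 (adjusted p = 0.738). The remaining core genes differed by CCNB1 0.07, CDK1 0.01, AURKA -0.03, BUB1 -0.04, CENPA -0.17, KIF11 -0.15, TOP2A -0.12 and MKI67 -0.29.

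The 59 genes moved together from library to library. Over the 29 libraries the residuals of member pairs, after group means were removed, had a median correlation of 0.38 over 1711 pairs, against 0.00 for pairs of all genes, and 41.8% of member pairs exceeded 0.5 against 17.6%. Without the libraries that stood apart the median was 0.49 over 27 libraries. These correlations share the libraries' scaling and are a description. Helicon4_100mpk library 1 was the lowest of its group for 44 of 59 members, with a mean deviation of -0.41 in log2, and library 5, the only one of its title code, was highest for 31. At 30 mpk, Helicon4 library 6 was highest for 34 of 59. Among vehicle libraries, library 4 was lowest for 25. The sum over the 59 genes ran from 4529 to 6346 CPM with Helicon4 at 100 mpk, from 5698 to 6663 CPM with Helicon4 at 30 mpk, from 5527 to 6396 CPM with Helicon4neg and from 5094 to 6783 CPM with vehicle, so the groups overlapped in the total.

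**Figure D4:**
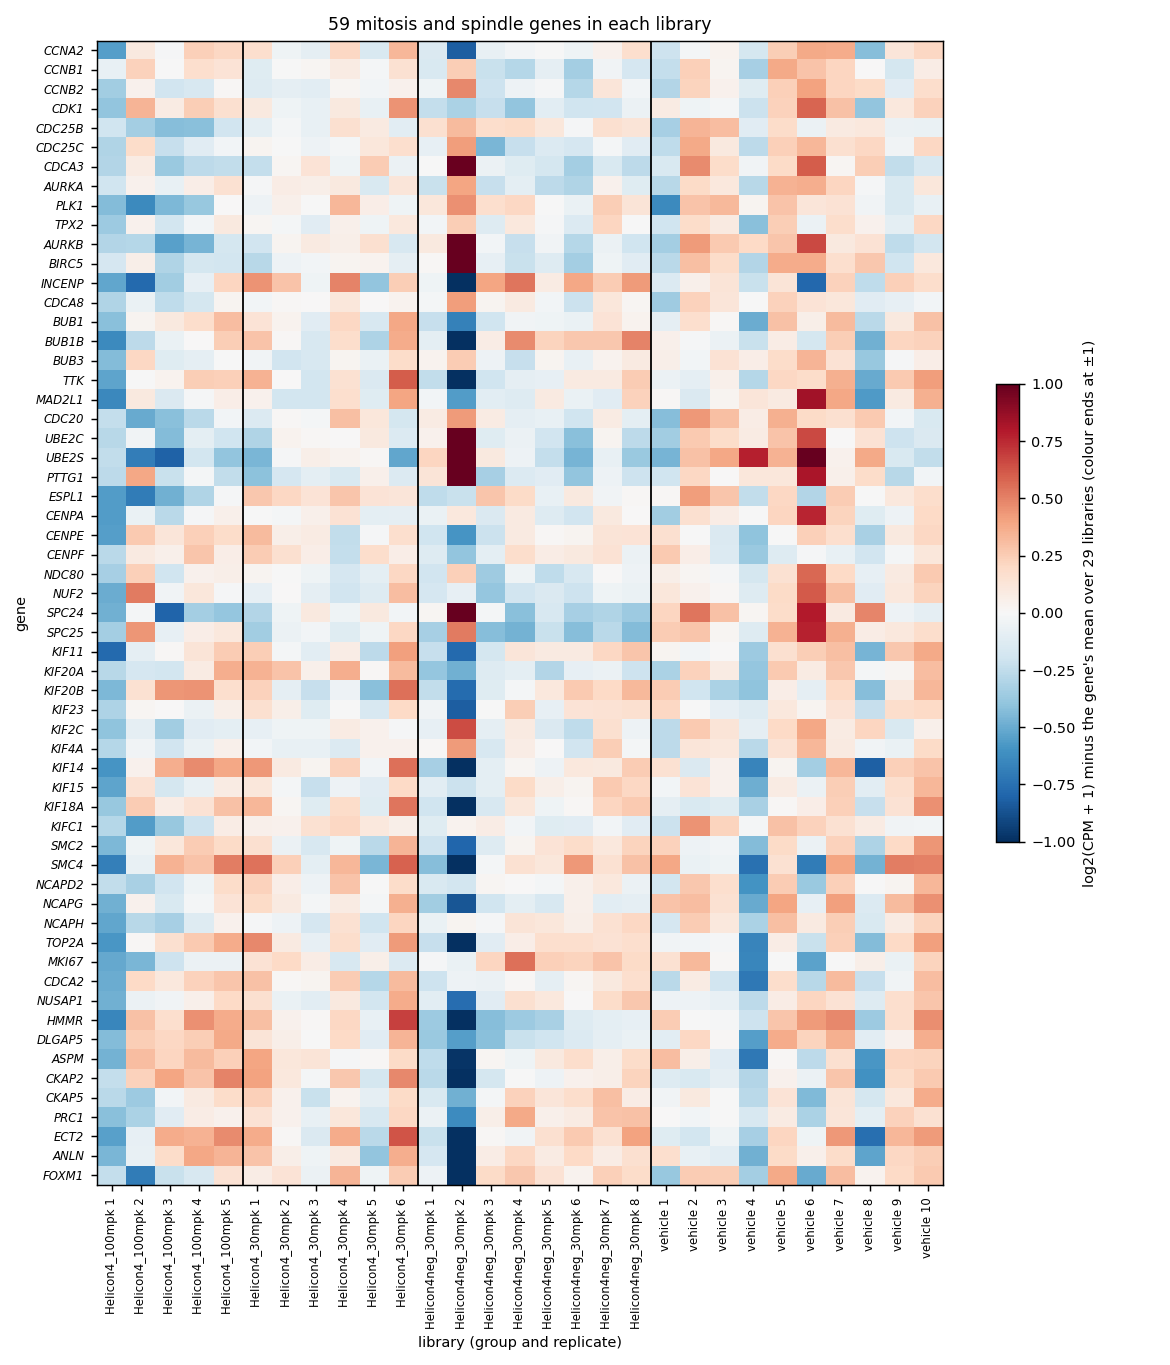
Log2(CPM + 1) of each gene minus its mean over the 29 libraries (colour, ends at ±1), with genes down the page by role and libraries across, in the order Helicon4_100mpk, Helicon4_30mpk, Helicon4neg_30mpk and vehicle. Helicon4_100mpk library 1 is low for most genes, and Helicon4neg library 2 is split into genes far above and far below the rest.

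Fold changes ran with gene length in the members and in the whole table. Spearman's rho between length and log2 fold change at 100 mpk against vehicle was 0.42 over the 59 members and 0.24 over all 13373 genes. At 30 mpk, where no member was called, it was 0.62 over the members and 0.35 over all genes. These values are across genes, which are not independent. Of the 30 shorter members (1286 to 4476 bases) 8 fell with Helicon4 at 100 mpk against vehicle, and of the 29 longer (4533 to 12807 bases) 2 fell. The falls among longer genes were ESPL1 at 8890 bases and PLK1 at 4760 bases. Median log2 fold changes were -0.18 for the shorter and -0.07 for the longer members. In Helicon4neg library 2, set against the mean of the other 7, 20 of the 30 shorter members were higher (median 0.32) and 4 of the 29 longer (median -0.78). Slopes on length averaged 0.04 ± 0.05 with Helicon4 at 100 mpk and -0.04 ± 0.08 with vehicle (SD, n = 5 and 10). The part of length in the falls was not tested beyond a fit with the slope as a covariate. In that fit 23 members fell and 0 rose with Helicon4 at 100 mpk (20.3% of all genes lower), 4 fell at 30 mpk (8.76%) and 12 fell with Helicon4neg (8.99%). The genes added at 100 mpk included BUB1B at -0.41, FOXM1 at -0.49, PRC1 at -0.31 and MKI67 at -0.32. KIF2C lost its call at -0.17, and SMC4 turned to -0.40 (adjusted p = 0.000412).

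**Figure D5:**
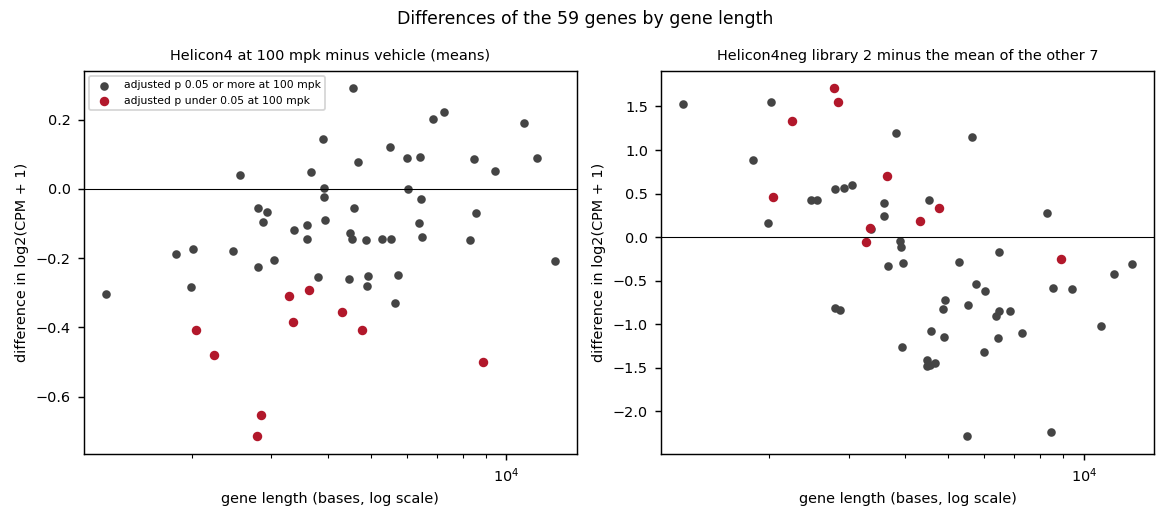
Difference in log2(CPM + 1) (vertical axes) against gene length in bases (horizontal, log scale) for the 59 genes: left, Helicon4 at 100 mpk minus vehicle, and right, Helicon4neg library 2 minus the mean of the other 7 Helicon4neg libraries. Red marks the 10 genes that fell at 100 mpk, of which 8 are among the 30 shorter genes, and in the right panel longer genes lie lower.

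The promoter motifs were set beside the calls. Among the 10 genes that fell with Helicon4 at 100 mpk, 4 had a CHR and 8 had CCAAT, and among the 41 members not called with a promoter entry 34 had a CHR and 30 had CCAAT. ESPL1, PLK1, KIFC1 and CDC20 were the 4 with a CHR. CDK1, with a log2 fold change of 0.00, carries both motifs in the window shown above, at -161 and -150. The counts are small and were not tested.

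Of 106 other genes of mitosis, 20 fell and 3 rose with Helicon4 at 100 mpk against vehicle, with a median log2 fold change of -0.08. The shares, 18.9% lower and 2.83% higher, stand beside 15.9% and 14.3% of all genes. Of 25 other spindle, kinesin and cytokinesis genes 8 fell (32%) and 0 rose. They included CIT, citron kinase of the midbody, with 39.99 ± 6.27 CPM with Helicon4 at 100 mpk, against 70.9 ± 11.2 CPM with vehicle, and a log2 difference of -0.81 (adjusted p = 1.26e-05), KIF22 at -0.50 (adjusted p = 0.000314) and KIF18B at -0.44 (adjusted p = 0.000411). Of 32 other centromere and kinetochore genes 7 fell (21.9%), among them ZWINT, with 72.7 ± 8.94 CPM with Helicon4 at 100 mpk, against 108 ± 10.2 CPM with vehicle, at a log2 fold change of -0.57 (adjusted p = 2.16e-06), MAD1L1 at -0.61 (adjusted p = 0.00137) and HJURP, the chaperone of CENPA, at -0.30 (adjusted p = 0.00429). Of 17 kinases, phosphatases and G2/M regulators 3 fell (17.6%) and 1 rose, PKMYT1, which inhibits CDK1, falling most clearly, with 27.6 ± 6.98 CPM with Helicon4 at 100 mpk, against 55.5 ± 10.4 CPM with vehicle, at a log2 fold change of -0.998 (adjusted p = 1.18e-06). CDC25A stood at -0.30 (adjusted p = 0.0205) and MASTL at -0.31 (adjusted p = 0.0325). Of 13 cohesin genes 1 fell, CDCA5 (sororin) at -0.42 (adjusted p = 0.00854), and 2 rose, PDS5B at 0.28 (adjusted p = 0.0281) and NIPBL, the cohesin loader, at 0.46 (adjusted p = 0.0315). Of 3 condensin II genes NCAPH2 fell, at -0.64 (adjusted p = 0.000187). None of 16 subunits and regulators of the anaphase promoting complex passed the test, the smallest adjusted p being that of ANAPC7 at -0.31 (adjusted p = 0.0525).

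Of 36 genes of DNA replication, which are transcribed earlier in the cell cycle, 22 fell (61.1%, against 15.9% of all genes) and 0 rose with Helicon4 at 100 mpk against vehicle, with a median log2 fold change of -0.33. CDT1, which licenses replication origins, had 49.9 ± 12.6 CPM with Helicon4 at 100 mpk, against 111 ± 17.5 CPM with vehicle, at a log2 fold change of -1.15 (adjusted p = 3.62e-08). MCM3, a subunit of the replicative helicase, had 210.1 ± 22.01 CPM with Helicon4 at 100 mpk, against 325 ± 28.1 CPM with vehicle, at a log2 fold change of -0.63 (adjusted p = 2.9e-08), and POLD1, a replicative polymerase, had 46.7 ± 11.4 CPM with Helicon4 at 100 mpk, against 81.6 ± 10.04 CPM with vehicle, at a log2 fold change of -0.82 (adjusted p = 1.64e-06). At 30 mpk 6 of the 36 fell (16.7%, against 5.22% of all genes), and with Helicon4neg 1 fell (2.78%, against 2.62%). Among 28 regulators of these genes (DREAM, MMB, E2F, RB and NF-Y) 7 fell (25%) and 3 rose (10.7%) at 100 mpk. E2F1, which activates replication genes, had 52.5 ± 6.63 CPM with Helicon4 at 100 mpk, against 99.3 ± 18.96 CPM with vehicle, at a log2 fold change of -0.89 (adjusted p = 0.000182), E2F2 stood at -0.63 (adjusted p = 1.59e-05), and NFYA, the subunit of NF-Y that contacts CCAAT, rose, with 58.2 ± 8.903 CPM with Helicon4 at 100 mpk, against 34.5 ± 5.01 CPM with vehicle, at a log2 fold change of 0.74 (adjusted p = 1.06e-05). Whether replication and mitotic genes differ in how many fell was not tested.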

How the data were processed

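PolyA RNA from 29 COLO320DM xenograft libraries was measured once per library, 48 h after dosing. Per the submitters' processing notes, reads were handled with Trimmomatic 0.39, STAR 2.7.7a, featureCounts (Subread 2.4.2) and edgeR 4.0.2 on GRCh38. The annotation, the use of strand in counting and any mouse genome are not given in the sources used here, so mouse reads may be counted under human genes. The protocols name NEBNext under extraction and a stranded TruSeq kit for the library. The values deposited by the authors are a normalized signal: gene counts scaled to CPM with between-library factors, since columns sum to 920821 to 1262560. In every library the lower values, which alone were checked, were whole multiples of 1 step within 0.05 steps. The step was taken as 1 read to estimate depth, which the lowest values did not establish in every library.

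Groups and replicate numbers came from the sample labels. Values were taken as log2(CPM + 1), for genes that reached 1 CPM in 5 or more libraries. All 4 groups entered 1 fit by limma 3.58.1 with its trend and robust options, run in R 4.3.3, with 5 comparisons and Benjamini-Hochberg adjusted p under 0.05 as the threshold for "fell", "rose" or "called". The limma fit of Helicon4 at 100 mpk against vehicle was tried on simulated counts with known fold changes. Those counts held no length slope and no libraries that stood apart. The alternative scaling factors were tried on libraries rescaled by known amounts, and the other steps were not tried this way. The length slope of a library is the slope of its deviations from gene means on log2 gene length. Members in the text are 13 core genes, every called member where a comparison had 10 or fewer, and in each role class the gene with the smallest adjusted p. From each other list the 3 genes with the smallest adjusted p at 100 mpk are named, and further members give context. Members and lists were chosen with earlier results of these data known. Deviations of same-numbered libraries of different groups correlated in both directions, and 0 of 27 libraries correlated best with their own number. Replicate numbers were therefore not taken as pairs.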

Additional observations from a re-analysis of the deposited data

Results flagged for a closer look

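In 236 combinations of gene and group, 39 single libraries lay far from the nearest other library relative to the range of their group. For a single combination chance gives about 1 in 20. The genes move together and are not independent, so this rate does not measure an excess in the 39. Helicon4neg library 2 accounts for 26 of the 39, 15 high and 11 low. The median gene length was 2788 bases among the 15 high genes and 4899 bases among the 11 low genes. It was highest for the mitotic entry genes CCNB1 at 174 CPM, CCNB2 at 162.6 CPM, CDC25C at 26.7 CPM and CDCA3 at 125.1 CPM. It was highest for the Aurora kinases and passenger genes AURKA at 113.8 CPM, AURKB at 207.9 CPM, BIRC5 at 406.6 CPM and CDCA8 at 77.76 CPM. Among partners of the anaphase promoting complex, CDC20 stood at 130.3 CPM, UBE2C at 462.5 CPM, UBE2S at 770.3 CPM and PTTG1 at 246 CPM. The kinetochore genes SPC24 at 84.21 CPM and SPC25 at 34.79 CPM and the kinesin KIF2C at 116.9 CPM complete the high values.

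The low values of Helicon4neg library 2 included CCNA2 at 42.22 CPM, KIF23 at 25.39 CPM, KIF18A at 7.528 CPM and TOP2A at 134.3 CPM. Spindle proteins were low as well, with NUSAP1 at 98.15 CPM, HMMR at 8.837 CPM, ASPM at 28.15 CPM and CKAP2 at 51.34 CPM. The cytokinesis genes ECT2 and ANLN stood at 20.71 CPM and 13.98 CPM, and FOXM1 at 80.52 CPM.

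Vehicle library 6 was high for 5 genes: PTTG1 at 164.3 CPM, CENPA at 63.18 CPM, NDC80 at 46.09 CPM, NUF2 at 105.8 CPM and SPC25 at 41.58 CPM. With Helicon4 at 100 mpk, library 1 was low for CENPE at 42.04 CPM, CDCA2 at 12.66 CPM, DLGAP5 at 36.94 CPM and ASPM at 40.4 CPM, and library 2 was high for CDCA3 at 66.36 CPM. With Helicon4 at 30 mpk, library 4 was high for PLK1 at 191.4 CPM, and library 6 for CDK1 at 161.1 CPM and NUF2 at 85.35 CPM. What sets these libraries apart was not tested.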

How the results depend on the processing

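The counts of called members, 10, 0, 2, 2 and 2 in the order of the comparisons above (vehicle comparisons of Helicon4 at 100 mpk, of Helicon4 at 30 mpk and of Helicon4neg, then Helicon4 against Helicon4neg, then between the doses), stayed within 1.5 times under another pseudocount, no filter, other scaling factors and limma without trend. With title code as a block all 5 counts were 0, against 1.05%, 0.553%, 0.015%, 1.38% and 0.0748% of all genes in either direction. With the length slope as a covariate 23 and 4 fell for the 100 and 30 mpk doses of Helicon4 against vehicle, 12 for Helicon4neg and 9 between the doses. The shares of all genes lower were 20.3%, 8.76%, 8.99% and 8.14% in that order. At 1.5-fold or more the counts were 2, 0, 0, 1 and 1, against 9.41%, 3.58%, 0.449%, 4.31% and 1.31% of all genes in either direction. Without both libraries that stood apart 4 fell with Helicon4neg against vehicle (7.74% of all genes lower) and 4 at 100 mpk against 30 mpk (4.32%). For Helicon4neg against vehicle, a filter of 5 CPM and a fit of only those groups left 1 gene each.

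Leaving out each library in turn gave 5 to 14 at 100 mpk against vehicle, 0 at 30 mpk, 0 to 7 with Helicon4neg (0 without its library 4, 7 without its library 2), 1 to 3 for Helicon4 against Helicon4neg and 1 to 4 between the doses (4 without vehicle library 1 or Helicon4neg library 2). Shares over all genes were not set beside these counts, so they describe the members' calls only.

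The replicate number as a block gave 1 call for Helicon4neg against vehicle and 1 between the doses, losing HMMR and KIFC1, and also lost NCAPH at 100 mpk against vehicle. Over 35 same-numbered pairs the correlation of deviations ran from -0.70 to 0.52, and 15 pairs exceeded 0.1. Of 27 libraries, 0 correlated best with their own number.

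Of values called in either fit, 4 turned sign: AURKB to 0.18 and UBE2S to 0.40 at 100 mpk with the title code as a block, which raised standard errors 3.20 times, and SMC4 to -0.40 at 100 mpk and -0.31 at 30 mpk with the length slope. When title codes were blocked, 39, 21, 38, 54 and 49 of the 59 members kept their sign in the 5 comparisons. The cause was not tested. The count tests planned on recovered reads, edgeR and DESeq2, were not run, because the value of 1 read could not be established from the lowest values in every library.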
